A study of Mus musculus with 2 samples.

Results

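The loci described here are 10 mouse miRNA genes that are paralogs of the mir-17-92 cluster or related to it by seed. They are the mir-106b-25 cluster (Mir106b, Mir93 and Mir25), the mir-106a-363 cluster (Mir106a, Mir18b, Mir20b, Mir19b-2, Mir92-2 and Mir363) and the single gene Mir92b. Other genes with the same seeds are named at the end. They were chosen by gene symbol from the 1973 miRNA loci with counts. No measured value entered that rule, but earlier results of these data were known when it was set. The study sequenced the small RNA in total RNA of midbrain tissue, taken from embryos of the mouse strain B6NCrl at an age of 14.5 days. The series held 1 group of 2 biological replicates, untreated and without a transgene or mutation in the labels, so no condition could be compared. The labels describe a single midbrain per replicate and different collection days, but give both the same donor identifier, pup number and pregnancy number and a pooled sex. Whether they are separate embryos is therefore unclear. SDs measure only the spread between these libraries, which may be technical. The p-values of the exact binomial test between them allow for counting error only.

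A miRNA gene is transcribed as a longer RNA with a hairpin, from which Drosha and Dicer cut a duplex of about the length of the mature strand. The mature strand recognises target mRNAs mainly through its seed, bases 2 to 8, so that miRNAs with the same seed share most predicted targets. The mir-17-92 cluster and its paralogs are known for promoting proliferation, are induced by MYC and E2F factors, and repress, among others, the cell cycle inhibitor Cdkn1a and the proapoptotic gene Bcl2l11. In the embryonic brain the miR-17 and miR-92 families are known from neural progenitors, and miR-92b is known as a repressor of the neurogenic T-box factor Tbr2 (Eomes).

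The mature sequences, from RefSeq on assembly GRCm38.p6, show how the 10 genes fall into families. All 10 symbols matched, at the same positions as in the annotation, and each gene gives 1 mature strand with a seed of the mir-17-92 group. These strands are printed from 5′ to 3′ with the seed in capitals, beside those of mir-17-92 that share the seed. Members with the AAAGUGC seed, the miR-17 family, are Mir106b, Mir93, Mir106a and Mir20b, which all use the strand from the 5′ arm.
miR-106b-5p: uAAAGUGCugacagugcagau
miR-93-5p: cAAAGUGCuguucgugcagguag
miR-106a-5p: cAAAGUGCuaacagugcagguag
miR-20b-5p: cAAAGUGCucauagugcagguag
miR-17-5p: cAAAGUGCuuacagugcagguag
miR-20a-5p: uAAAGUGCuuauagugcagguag

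Mir25, Mir92-2, Mir363 and Mir92b carry the AUUGCAC seed of the miR-25/92 family, on the strand from the 3′ arm.
miR-25-3p: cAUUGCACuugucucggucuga
miR-92a-3p: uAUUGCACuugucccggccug
miR-363-3p: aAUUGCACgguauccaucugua
miR-92b-3p: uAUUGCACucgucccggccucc

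The remaining genes belong to the miR-18 family with the AAGGUGC seed and to the miR-19 family with the GUGCAAA seed.
miR-18b-5p: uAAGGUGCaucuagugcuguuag
miR-18a-5p: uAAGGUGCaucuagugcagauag
miR-19b-3p: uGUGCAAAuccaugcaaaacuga
miR-19a-3p: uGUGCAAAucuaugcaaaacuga

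Relatedness within a family was uneven. miR-106a-5p and miR-17-5p differ at 1 of 23 positions (A10U, with the base of miR-106a-5p first and positions counted from 1 at the 5′ end). miR-20b-5p and miR-20a-5p differ at 2 positions, C1U and C10U, and miR-18b-5p and miR-18a-5p at U18A and U20A. miR-92b-3p has 2 differences from miR-92a-3p over 21 positions, C10U and C21G. miR-363-3p is the most distant by this count, made position by position without gaps, with 11 differences from miR-92a-3p over 21 positions. The seed is the same by the definition of a family. The mature strands miR-19b-3p and miR-92a-3p are each made by a gene of both clusters, Mir19b-1 and Mir19b-2 for the former and Mir92-1 and Mir92-2 for the latter.

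The genes lie at 3 places in the genome, given here in coordinates of mm10 (GRCm38). The mir-106b-25 cluster spans 498 bases at chr5:138165321-138165818 on the minus strand, inside intron 13 of the Mcm7 transcript with 15 exons. Mcm7 encodes a subunit of the replicative MCM helicase. Mir93 and Mir25 also fall within an exon of an annotated Mcm7 transcript that retains the intron. The mir-106a-363 cluster spans 875 bases at chrX:52741693-52742567 on the minus strand. Mir106a overlaps the last bases of the noncoding gene Kis2, by up to 5 of its 65 bases, and the other 5 genes of that cluster lie in no other annotated gene. Mir92b lies at chr3:89227116-89227198 on the minus strand in no other gene, 27 bases from the mitochondrial import gene Mtx1 and 1858 bases from the mucin gene Muc1.

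Counts were raw reads on the annotated strand of each hairpin, 7302633 in total in replicate 1 and 3966727 in replicate 2, and levels are given as CPM, the reads of a gene scaled to a common total of these sense reads. Each hairpin gives mature strands of nearly equal length, 21 to 24 bases, so CPM was not divided by length. The 2 arms of a hairpin were not told apart. A level of 3 reads, the limit set by a count of 0, was 0.411 CPM in replicate 1 and 0.756 CPM in replicate 2. Intervals and this limit cover counting error only. Reads mapping to several places, 36.2% and 36.9% of all reads, were tallied apart from the genes and do not enter any count. The labelled tissue was checked with neural miRNAs, of which 7 of 8 had at least 10 reads in each library, with a summed level of 19050 CPM in replicate 1 and 23071 CPM in replicate 2. In bulk tissue, fewer cells with a miRNA and less of it per cell cannot be told apart.

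Every one of the 10 genes passed the detection limit of 10 reads per library, and together they took 3.15% ± 0.0724 of the reads (SD, n = 2). Their levels covered more than 3 orders of magnitude on the CPM scale. Mir93 and Mir106b held 40.7% ± 1.10 and 39.5% ± 1.97 of the reads of the 10 genes. The median of the 10 was 620.2 CPM, beside 120.0 CPM over the 397 detected loci, and 7 of the 10 stood above that median. The plot of levels by library shows the ordering.

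**Figure D1:**
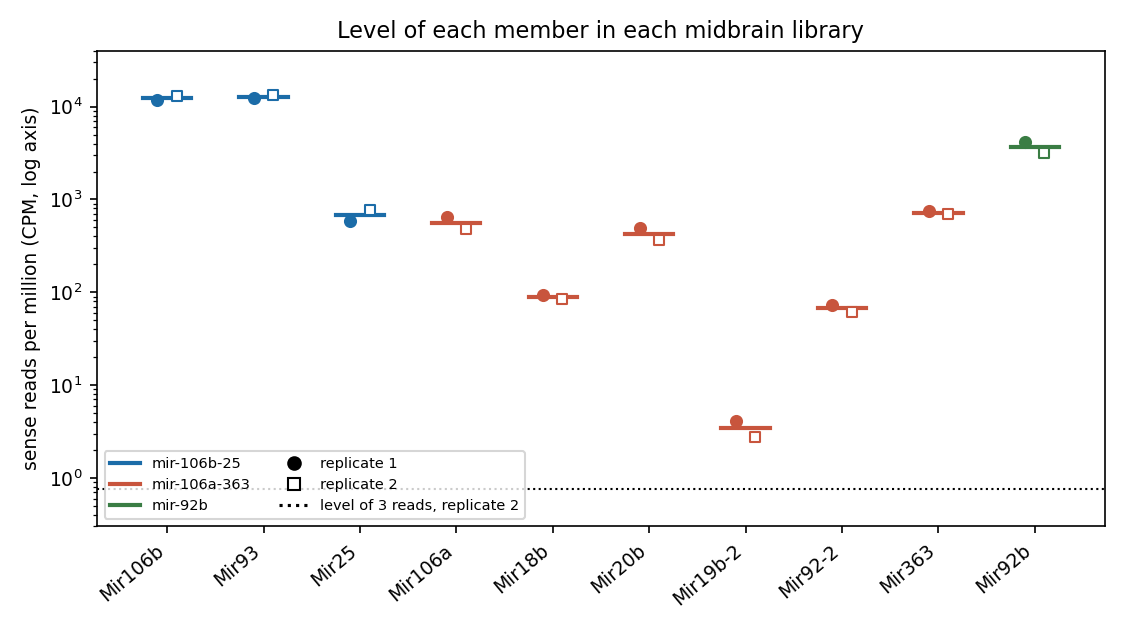
Level of each gene in each midbrain library, in sense CPM on a log axis. Filled circles are replicate 1, open squares replicate 2, bars their mean, and the dotted line the level of 3 reads in replicate 2 (0.756 CPM). Mir93 and Mir106b stand highest at 12813 and 12435 CPM and Mir19b-2 lowest at 3.44 CPM.

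The mir-106b-25 cluster was led by its miR-17 family genes. Mir93 had 12360 CPM in replicate 1 and 13266 CPM in replicate 2, from 90264 and 52622 reads. Mir106b had 11795 and 13075 CPM. The difference between their means, 378 CPM, was smaller than the SD of Mir106b, 905 CPM, and the ratio of Mir93 to Mir106b was 1.03 ± 0.0236 (SD, n = 2). Mir93 was nevertheless the higher in both libraries, by a factor of 1.05 in replicate 1 and 1.01 in replicate 2, and the 95% counting interval of each ratio lay above 1. The genes stood at places 16 and 18 of all 1973 loci. Mir25, the miR-25/92 family gene of the same intron, had 591 CPM in replicate 1 and 768 CPM in replicate 2, between Mir363 and Mir106a in mean level. Mir93 exceeded Mir25 by a factor of 20.9 in replicate 1, with a 95% counting interval of 20.3 to 21.6 by the exact Clopper-Pearson method. In replicate 2 the factor was 17.3, with an interval of 16.6 to 17.9. The hairpins of Mir93 and Mir25 lie 118 bases apart. None of the 3 genes shares an exact stretch of 16 bases with another annotated miRNA hairpin.

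Together the cluster took 2.59% ± 0.167 of the reads, of which Mir25 contributed 2.61% ± 0.315. The loci next to Mir93 in level were Mir26b above it at 14076 ± 515 CPM, and Mir137, a regulator of neural differentiation, below it at 12716 ± 1726 CPM (n = 2). Likeness was measured here as the nearest mean CPM over the 2 libraries.

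The mir-106a-363 cluster on the X chromosome was much lower, at 0.187% ± 0.0268 of the reads (SD, n = 2). The counted reads of mir-106b-25 exceeded those of mir-106a-363 by a factor of 12 in replicate 1 and 16.1 in replicate 2. Their counting intervals, 11.8 to 12.2 and 15.7 to 16.5, do not overlap. Both factors can be too high, because reads of Mir19b-2 and Mir92-2 that match another gene were not counted. Mir363, the last hairpin of the transcript, was the highest, with 755 CPM in replicate 1 and 690.0 CPM in replicate 2. Mir106a, the first, followed with 642 and 479 CPM, and Mir20b with 495 and 364 CPM. The difference between the means of Mir363 and Mir106a was larger than the SD of either, and the ratio of Mir363 to Mir106a was 1.31 ± 0.187. The ratio of Mir106a to Mir20b was also 1.31, with an SD of 0.0143, and both libraries gave the same order.

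The other 3 genes of the cluster were lower. Mir18b, the miR-18 family gene, had 92.8 CPM in replicate 1 and 85.5 CPM in replicate 2. Mir92-2, a source of miR-92a-3p, had 72.9 and 61.8 CPM. Mir18b stood above Mir92-2 in both libraries, by a factor of 1.33 ± 0.0772 (SD, n = 2). Mir19b-2, a source of miR-19b-3p, was lowest, with 30 reads in replicate 1 and 11 in replicate 2. These gave 4.11 CPM with a 95% counting interval of 2.77 to 5.86, and 2.77 CPM with an interval of 1.38 to 4.96, which overlap. In counted reads Mir363 exceeded its neighbour Mir92-2, 70 bases away in the genome and with the same AUUGCAC seed, by a factor of 10.8 ± 0.572. Ratios to Mir92-2 and Mir19b-2 can be too high, because reads that also match Mir92-1 or Mir19b-1 were not counted. Mir363 lay between Mir203, an epithelial miRNA, at 731 ± 5.66 CPM and the imprinted miRNA Mir341 at 712 ± 114 CPM.

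Of the 10 genes, Mir19b-2 and Mir92-2 share an exact stretch of at least 20 bases with another miRNA hairpin, 25 bases with Mir19b-1 and 22 bases with Mir92-1. The hairpins are shown in full because the shared stretch covers the whole mature strand, given in capitals. Each is written 5′ to 3′ along its gene's strand in GRCm38.p6: Mir19b-2 at chrX:52741983-52742066 and Mir92-2 at chrX:52741838-52741928 on the minus strand, Mir19b-1 at chr14:115044305-115044391 and Mir92-1 at chr14:115044427-115044506 on the plus strand.
Mir19b-2: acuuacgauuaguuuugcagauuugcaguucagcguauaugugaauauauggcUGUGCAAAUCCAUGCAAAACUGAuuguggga
Mir19b-1: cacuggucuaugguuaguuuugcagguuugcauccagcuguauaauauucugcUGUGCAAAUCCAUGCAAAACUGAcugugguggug
Mir92-2: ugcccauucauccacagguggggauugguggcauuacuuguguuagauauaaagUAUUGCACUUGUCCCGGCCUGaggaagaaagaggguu
Mir92-1: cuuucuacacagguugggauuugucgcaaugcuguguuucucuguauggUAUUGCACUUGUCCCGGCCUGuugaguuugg

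A read lying wholly within the strand in capitals matches both genes, and reads with several matches were not counted. The levels of Mir19b-2 and Mir92-2 are therefore uncertain and can be too low, and so can those of Mir19b-1 and Mir92-1. Beyond the shared stretch the hairpins of each pair differ, also in the strand of the 5′ arm. A read running past that stretch can match 1 gene only. How many of the counted reads came from each arm was not tested. Mir19a, whose hairpin shares no stretch of 16 bases with another, had 66.6 ± 8.17 CPM (SD, n = 2). Its strand miR-19a-3p differs from miR-19b-3p at 1 of 23 positions. The cause of the low miR-19 levels was not tested. Mir18b shares 17 bases with Mir18, and the other 7 genes share 14 bases or fewer with any other hairpin. Exact stretches miss strands that are nearly alike, such as miR-106a-5p and miR-17-5p with 1 difference in 23 positions. How reads with a mismatch were assigned is not known.

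Mir92b stood between the clusters. It had 4154 CPM in replicate 1 and 3194 CPM in replicate 2, at place 54, and held 0.367% ± 0.0679 of the reads (SD, n = 2). Its level exceeded that of Mir363 by a factor of 5.07 ± 0.617 and that of Mir25 by 5.59 ± 2.03. The latter ratio was 7.03 in replicate 1 and 4.16 in replicate 2, Mir92b being lower and Mir25 higher in replicate 2. The single gene Mir92b held more counted reads than all 6 genes of mir-106a-363, by a factor of 2.01 in replicate 1 and 1.90 in replicate 2. These factors can be too high, because reads of Mir19b-2 and Mir92-2 that match another gene were not counted. The hairpin of Mir92b had the highest GC content of the 10, 67.5% against 38.1% to 63.1% for the others, and the lowest predicted folding energy, -0.635 kcal/mol per base against -0.272 for Mir18b at the other end. Mir541 and Mir652 were next to it in level at 3713 ± 362 and 3624 ± 16.7 CPM.

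In the order of all 10 means, neighbours were separated by more than the larger of their SDs at 6 of 9 steps. The step from Mir93 to Mir106b was smaller than that SD but had the same order in both libraries. The steps from Mir363 to Mir25 and from Mir25 to Mir106a were also smaller, and their order differed between the libraries. In replicate 1 Mir25 stood below Mir106a, and in replicate 2 above Mir363.

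The mir-106a-363 cluster was set beside mir-17-92, which holds a gene of the same family at each of 5 counterpart places. Mir17 exceeded Mir106a by a factor of 52.8 ± 7.29, Mir18 exceeded Mir18b by 75.6 ± 5.09 and Mir20a exceeded Mir20b by 25 ± 3.09 (SD, n = 2). Mir92-1 exceeded Mir92-2 by 22.4 ± 0.937. Mir19b-1 exceeded Mir19b-2 by 5.04 ± 3.03, from ratios of 2.90 in replicate 1 and 7.18 in replicate 2 whose counting intervals, 1.90 to 4.55 and 3.80 to 15, overlap. The last 2 pairs share their mature strand. The order of the 5 counterparts by level was the same in both clusters and in both libraries: Mir106a, Mir20b, Mir18b, Mir92-2, Mir19b-2 on the X chromosome. The lowest 2 places are held by the pairs that share a mature strand, whose reads can match both genes and then were not counted. The part of this in the order was not tested. The plot of counterparts shows this parallel order, with the smallest gap at the miR-19b pair.

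**Figure D2:**
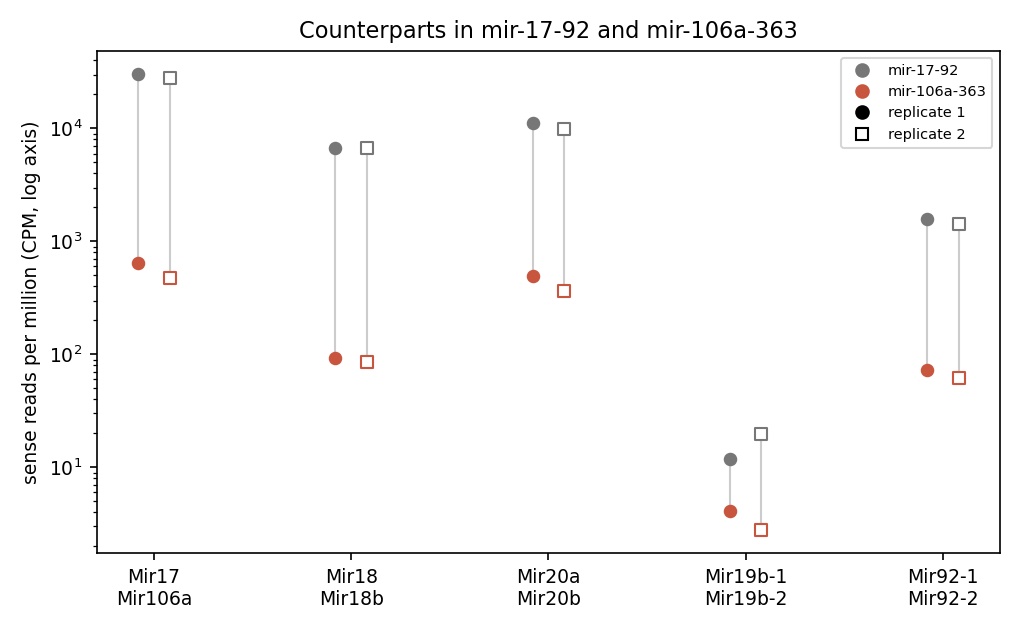
Levels of 5 counterpart pairs of mir-17-92 (grey) and mir-106a-363 (red) in sense CPM on a log axis, with replicate 1 as filled circles and replicate 2 as open squares joined by lines. Each red point lies below its grey counterpart, by a mean factor of 5.04 at the miR-19b pair to 75.6 at the miR-18 pair. Reads lying wholly within the stretch shared by the miR-19b pair or by the miR-92a pair match both genes, and reads with several matches were not counted.

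Whole clusters also differed. The reads of mir-17-92 were 1.86 ± 0.236 times those of mir-106b-25 and 25.8 ± 2.08 times those of mir-106a-363 (SD, n = 2). Hairpins at the head of each cluster made up unequal shares. Mir17 gave 60.7% ± 0.329 of the reads of mir-17-92, whereas Mir106a gave 29.8% ± 1.88 of those of mir-106a-363. Mir363, which has no counterpart in mir-17-92, gave 38.8% ± 3.10. The sums of mir-17-92 and mir-106a-363 can be too low, because reads matching both genes of the miR-19b or miR-92a pair were not counted. The ratios between clusters are therefore uncertain, and the shares of Mir17, Mir106a and Mir363 can be too high.

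Grouped by seed, the 10 genes contributed unevenly to their families, counted over these genes and the 6 of mir-17-92. The miR-17 family took 6.60% ± 0.164 of all reads (SD, n = 2). Of these, Mir106b and Mir93 gave 38.3% ± 3.29, Mir106a and Mir20b gave 1.5% ± 0.278, and Mir17 and Mir20a of mir-17-92 gave 60.2% ± 3.01. Mir17 alone exceeded Mir93 by a factor of 2.28 ± 0.269.

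The miR-25/92 family held fewer counted reads, 0.665% ± 0.0720 of the total, and most of these came from the members. Mir92b gave 55.0% ± 4.25 of its reads, Mir92-2 and Mir363 together 11.9% ± 0.480, and Mir25 10.4% ± 3.01. Mir92-1 gave 22.7% ± 0.760, a share that can be too low because miR-92a-3p reads can match both Mir92-1 and Mir92-2. For the same reason the family total can be too low, and the shares of Mir92b and Mir25 too high. In the miR-18 family Mir18b gave 1.31% ± 0.0870 of the reads, the rest being Mir18. In the miR-19 family Mir19b-2 gave 4.13% ± 1.72. That family took 0.00859% ± 0.00129 of all reads, the lowest counted share of the 4. It can be too low, because miR-19b-3p reads can match both Mir19b-1 and Mir19b-2.

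**Figure D3:**
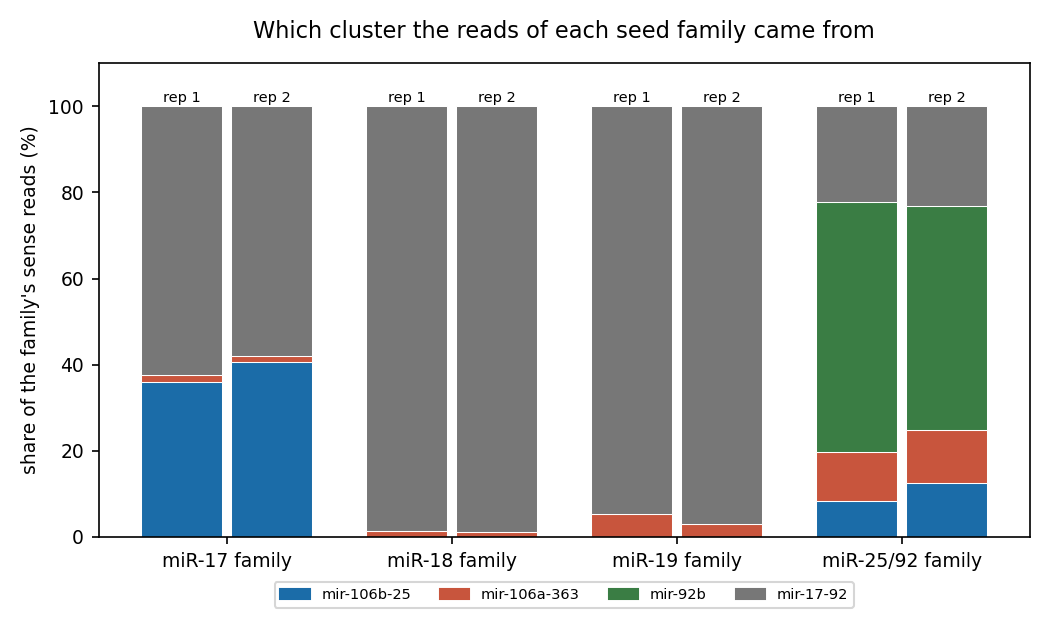
Share of the sense reads of each seed family (%, vertical axis) by the cluster they came from, with 1 stacked bar per library, over the 16 loci of the clusters and Mir92b. Genes of mir-17-92 (grey) hold 60.2% of the miR-17 family on average, whereas Mir92b (green) holds 55.0% of the counted miR-25/92 family reads. Reads of miR-92a-3p and miR-19b-3p can match several genes, and such reads were not counted, so shares within their families are uncertain.

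Reads followed the annotated strand without exception at these genes. No read on the opposite strand was found at any of the 10 in either library, nor at the 6 genes of mir-17-92. Over all 1973 loci there were 150552 opposite-strand reads in replicate 1 and 83765 in replicate 2, beside 7302633 and 3966727 sense reads. With 3 reads as the limit set by a count of 0, the opposite-strand share could be up to 0.00332% for Mir93 in replicate 1. For Mir19b-2 that limit was 10% in replicate 1, with 30 reads, and 27.3% in replicate 2, with 11 reads. The exact 95% interval of the sense share of Mir19b-2 is wider and began at 88.4% in replicate 1 and 71.5% in replicate 2.

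The libraries differed slightly at most of the genes. An exact two-sided binomial test on totals scaled with TMM (trimmed mean of M-values), with Benjamini-Hochberg adjustment over all 397 detected loci, separated the libraries at 8 of the 10, beside 53.9% of all tested loci. The test allows for counting error only, so that abundant genes pass at small ratios, and it compares these libraries and not conditions. The dispersion of edgeR, its measure of spread between libraries, was estimated from the differences between these same libraries. A test with it therefore calls few loci by construction and cannot show that the genes are alike. With the dispersion that edgeR estimated over all loci, a biological coefficient of variation of 0.219, its exactTest called none of the 10 after adjustment beside 1.26% of all loci, and none at an unadjusted p under 0.05, beside 4.28% of all loci.

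The clusters went in different directions. All 3 genes of mir-106b-25 had ratios of replicate 2 to replicate 1 at or above 1, and 2 of them passed the binomial test as higher in replicate 2, as did 23.9% of tested loci. Mir25 had the largest of these ratios, a log2 ratio of 0.28 (exact 95% interval 0.22 to 0.35), higher in replicate 2 with an adjusted p of 7.1e-16 in the exact binomial test. Mir93 had a log2 ratio of 0.01 (exact 95% interval -0.01 to 0.02). All 6 genes of mir-106a-363 had lower levels in replicate 2, and 5 passed, beside 30.0% of tested loci called lower. Their log2 ratios ran from -0.66 at Mir19b-2, which did not pass with an adjusted p of 0.352 in the exact binomial test, to -0.21 at Mir18b, which passed with 0.0499. Mir18b missed the threshold with plain totals, with no filter on low counts and with both strands counted.

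Mir20b and Mir106a had log2 ratios of -0.54 and -0.52, and Mir92b of -0.47. Summed over each cluster, the log2 ratio was 0.04 for mir-106b-25 and -0.39 for mir-106a-363, and -0.22 for mir-17-92. Of the 10 genes 9 stayed within 1.5-fold, beside 331 of 397 loci, and the exception was Mir19b-2. With library totals in place of TMM all ratios shift up by 0.09, which leaves the direction of each of the 10 as it is. The plot of library differences shows these ratios within the spread of the other loci.

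**Figure D4:**
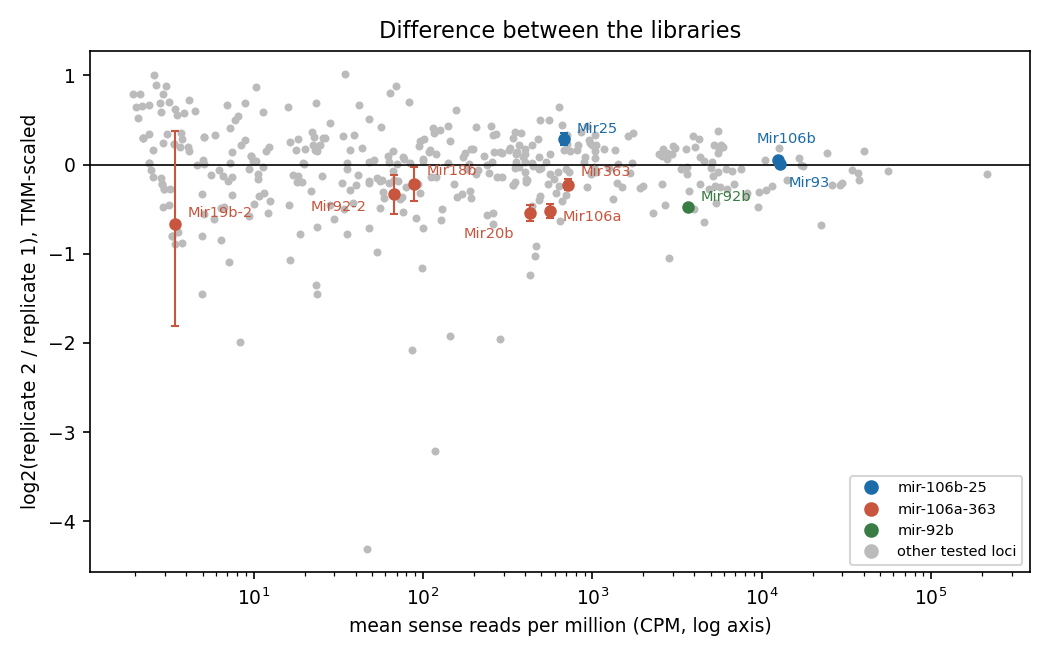
Log2 ratio of replicate 2 to replicate 1 after TMM scaling (vertical axis) against mean sense CPM (log axis) for the 397 detected loci. Coloured points are the 10 genes with exact 95% intervals of counting error and grey points the other loci. The genes of mir-106a-363 lie below 0, between -0.66 and -0.21, and those of mir-106b-25 between 0.01 and 0.28.

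Markers of other cell types differed between the libraries as well. The red cell and vessel lists had 3 of 3 miRNAs detected each. The summed level of the red cell miRNAs was 486 CPM in replicate 1 and 153 CPM in replicate 2, that of the vessel miRNAs 32566 and 21781 CPM, and that of the 2 myeloid miRNAs with a count 315 and 113 CPM. These 3 sums were lower in replicate 2, like mir-106a-363 and Mir92b, while the neural sum was higher there. The sums rest on their most abundant members, and not every member followed. Among the red cell miRNAs Mir486 had a log2 ratio of 0.04. Among the neural miRNAs Mir124a-1 and Mir124a-2 had -0.47 and -0.03 and Mir9-3 had 0.02. Mir486, Mir124a-1 and Mir124a-2 were low in level, with means of 10.3, 6.66 and 11.3 CPM. Their part in the differences between the clusters was not tested. Muscle miRNAs summed to 23.0 and 30.0 CPM with Mir133a-1 and Mir133a-2 at 0, and the liver miRNA Mir122 had 14.1 and 10.3 CPM.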

How the data were processed

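Raw read counts per miRNA gene were deposited by the authors as 1 table per library, with columns for both strands, the annotated strand and the opposite strand. Per the text the authors deposited with each library, the counts refer to assembly mm10 and annotation M4. No source used here names the aligner or counter. The tables list unmapped, several-place, outside-gene and ambiguous reads first. These classes were left out of totals, and in replicates 1 and 2 they held 19.0% and 18.5%, 36.2% and 36.9%, 3.10% and 2.17%, and 0% and 0% of all reads. Because reads with several matches were not assigned, genes with shared mature strands can be undercounted.

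Both samples form 1 group from their tissue labels. Gene identifiers were given symbols from GENCODE release M21, also on mm10, where 1894 of 1973 matched. Levels are CPM on 7302633 and 3966727 sense reads, with means and SDs over the replicates. Detected loci had at least 10 sense reads in each library. Libraries were compared with an exact binomial test (scipy 1.17.1) on TMM totals from edgeR 4.0.16. The test was tried on simulated counts drawn with counting error only and scaled to known totals without TMM. That trial does not cover spread between libraries. Alternatives were DESeq2 1.42.0 size factors, plain totals, other filters, both strands, other denominators, other lengths of shared sequence and each replicate left out. A further alternative was edgeR's exactTest, with a dispersion estimated from the same libraries that it compared. Hairpins were folded with RNAfold 2.7.2, and shared stretches were searched on both strands of 2202 annotated miRNA hairpins.

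By rule, the named genes are all 10 members, the 6 loci of mir-17-92 and the loci next in level to the highest of each group. Outside that rule, single miRNAs of the marker lists and the other RefSeq genes with the same seeds (Mir32, Mir367 and Mir6383) are named, the marker miRNAs after their values were seen. The members, lists and tests were chosen with earlier results of these data known.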

Additional observations from a re-analysis of the deposited data

How the results depend on the processing

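No paired analysis was possible because the series has 1 group. Levels depend on the denominator: the 10 genes summed to 31475 CPM on sense reads at miRNA genes, 12965 when scaled to all reads, and 40059 CPM without the most abundant locus in the total. With both strands counted the miR-18 family held 0.668% of the reads instead of 0.682% on totals larger by the opposite-strand reads. The binomial test separated the libraries at 214 loci and at 8 of the 10 genes. The first count was 200 to 223 and the second 7 or 8 with DESeq2 size factors, plain totals, other filters and both strands. edgeR's exactTest with the estimated dispersion called 5 loci and 0 of the 10 genes (17 loci and 0 of the 10 genes at an unadjusted p under 0.05). With plain totals the split over all loci was 127 higher and 90 lower in replicate 2, against 95 and 119 with TMM. Mir93 then passed, while Mir18b and Mir92-2 no longer did. Of the 10 genes 3 shared a stretch of 16 bases with another hairpin, 2 a stretch of 20 and 1 a stretch of 24. No direction of a ratio between the libraries reversed at the 10 genes under these alternatives. Leaving out either replicate moved each level, share and ratio by less than 1 SD, as it must with 2 replicates. Depth limits Mir19b-2, with 30 and 11 reads.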

Other observations

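Outside these clusters, 3 further miRNA genes of the RefSeq table carry a seed of the same families. Mir32, on chromosome 4 from 56895229 to 56895298 on the minus strand, makes miR-32-5p, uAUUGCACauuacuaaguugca, with the AUUGCAC seed in capitals. It had 270 CPM in replicate 1 and 315 CPM in replicate 2, below Mir25 and Mir363 and above Mir92-2. Mir367, known from pluripotent cells, makes miR-367-3p with the same seed and had 0 reads in replicate 1 and 1 read in replicate 2. Mir6383, whose mature strand has the AAAGUGC seed, had no sense read in either library. Among 1738 mature entries of RefSeq, 7 have the AAAGUGC seed, 7 the AUUGCAC seed, 3 the GUGCAAA seed and 2 the AAGGUGC seed.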
